A study of Mus musculus with 4 samples.

Results

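The transcription factors that build and maintain the hormone-secreting cells of the pancreatic islet were followed in insulinomas of mice treated with PBS or with sEphB4-Alb. The 9 genes Pdx1, Nkx6-1, Nkx2-2, Neurod1, Mafa, Isl1, Pax6, Foxa2 and Insm1 were taken by their symbols from a table of 18091 genes, and all 9 were in it. The PBS group was 2 tumors of RIP1-Tag2 (RT2) mice that had received vehicle, and the sEphB4-Alb group was 2 tumors of RT2 mice given an albumin fusion of the soluble EphB4 ectodomain, which blocks EphB4 and Ephrin-B2 signaling, at 10 mg/kg. Injections were intraperitoneal, 3 per week, from 10 weeks of age in 6 mice per group, and all tumors were taken at 13.5 weeks. Both groups carried the SV40 large T antigen transgene, which the insulin promoter drives in beta cells, both had wild-type Dll4 (Dll4+/+) by the study's methods, and all RT2 mice had sugar in their drinking water late in the experiment. The labels name the CD1 as well as the C57/BL6 background, whereas the series text gives C57/BL6. Each tumor had 1 Illumina MouseRef-8 v2.0 array. The labels do not link tumors to mice, so the spread between the 2 tumors of a group may be that within a mouse, or technical.

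Islet cells arise from pancreatic progenitors through a cascade of transcription factors. Neurog3 starts the endocrine program and is followed by Neurod1 and Insm1, homeodomain proteins such as Pdx1, Nkx6-1, Nkx2-2, Isl1 and Pax6 then assign and hold the hormone-producing fates, Foxa2 opens chromatin at many of the same genes, and Mafa marks the mature beta cell. Several of these proteins bind the insulin genes directly: Neurod1 on E-boxes, Pdx1 on TAAT sequences and Mafa on a separate element.

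Promoters are shown for the 4 members whose tumors did not overlap between the groups, a choice made by their values in these data. Each run is the 250 bases before the RefSeq gene start in build GRCm38.p6, 5′ to 3′ on the gene's strand. Capitals mark CANNTG, the E-box bound by basic helix-loop-helix proteins such as Neurod1.
Neurod1, chr2:79456637-79456886 (-): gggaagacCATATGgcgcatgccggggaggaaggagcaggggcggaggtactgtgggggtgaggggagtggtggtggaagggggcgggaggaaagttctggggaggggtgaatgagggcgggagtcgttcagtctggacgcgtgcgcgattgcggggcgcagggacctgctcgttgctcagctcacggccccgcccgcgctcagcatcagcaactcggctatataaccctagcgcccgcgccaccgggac
Pdx1, chr5:147269847-147270096 (+): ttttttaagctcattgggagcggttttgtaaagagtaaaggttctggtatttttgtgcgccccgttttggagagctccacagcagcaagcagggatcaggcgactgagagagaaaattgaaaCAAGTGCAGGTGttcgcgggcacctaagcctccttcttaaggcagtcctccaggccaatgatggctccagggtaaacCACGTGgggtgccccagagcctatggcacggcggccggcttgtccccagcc
Nkx6-1, chr5:101664712-101664961 (-): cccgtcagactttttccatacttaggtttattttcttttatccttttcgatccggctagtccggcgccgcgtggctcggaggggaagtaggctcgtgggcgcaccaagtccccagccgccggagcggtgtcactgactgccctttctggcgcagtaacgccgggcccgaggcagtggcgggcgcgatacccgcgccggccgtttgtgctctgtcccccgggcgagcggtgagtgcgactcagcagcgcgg
Isl1, chr13:116309689-116309938 (-): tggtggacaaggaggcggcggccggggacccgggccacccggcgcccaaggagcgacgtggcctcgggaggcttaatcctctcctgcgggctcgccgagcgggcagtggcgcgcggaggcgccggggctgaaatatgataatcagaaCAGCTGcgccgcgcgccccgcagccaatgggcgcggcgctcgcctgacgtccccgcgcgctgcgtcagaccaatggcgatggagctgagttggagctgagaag

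In these windows CANNTG, which reads the same on both strands, occurred once for Neurod1 (CATATG, starting 242 bases before the gene), 3 times for Pdx1 (at 128, 122 and 51 bases before it, the first pair side by side), 0 times for Nkx6-1 and once for Isl1 (CAGCTG, 103 bases before it). The motif is common: 66.2% of 32851 RefSeq promoter windows of this length held at least 1 CANNTG, and 12.2% held 3 or more. The core of homeodomain sites, TAAT or its complement ATTA, was in 54.9% of the windows, occurred 2 times before Isl1 and was in none of the windows of Neurod1, Pdx1 and Nkx6-1. Members not shown had the motif too: Nkx2-2, whose groups overlapped, had 3 CANNTG, and 1 window each of Pax6 and Foxa2 had 1. A match is a description of the letters and was not tested for binding or for a link with the values. Of the 9 members, 7 had promoter entries, with 10 windows among them, and no entry was found for Mafa or Insm1.

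Signal is the brightness of each gene's beads, and levels are given as deposited linear signal and as log2 signal after background correction and quantile normalization. The arrays of the PBS tumors had a median signal of 135.5 and 141.6 against 159.9 and 168.7 with sEphB4-Alb, and signals above the background of the array were found for 9286 to 11261 genes. A gene was tested where it exceeded background in both tumors of at least 1 group, which held for 10509 genes. Array PBS 1 correlated with the other arrays at r = 0.945 to 0.954 over the genes tested, against 0.975 to 0.979 among the other arrays. Xist was above background only in the sEphB4-Alb tumors and Ddx3y, a Y-linked gene, had a log2 fold change of -2.31, although above background in all 4 tumors. The sample labels give no sex, the study's legends name male mice for tumor volumes under these treatments, and sex and treatment cannot be told apart in these RNA samples.

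Islet transcription factors were neither uniformly higher nor uniformly lower in sEphB4-Alb tumors. Across all 9 members the difference in normalized log2 signal between group means was above 0 for 3 (Neurod1, Nkx6-1 and Pdx1) and below 0 for 6, with a median of -0.08. Of the 9, 5 exceeded background in both groups, Pdx1 and Nkx6-1 passed the filter only through the sEphB4-Alb group, and Mafa and Pax6 were not tested. In the normalized values none of the 7 tested members passed the study's thresholds of a 2-fold change and an unadjusted p under 0.05. Of all genes tested, 0.971% passed them as higher and 0.162% as lower. The study does not state the measure of its fold change. Its listed values for Ins1 and Pyy match the ratio of mean linear signals as deposited, which differs from the normalized values used here. By that ratio Neurod1 was past 2-fold (log2 1.045), with the median gene at 0.48, and the study does not list Neurod1 among its higher genes. At an unadjusted p under 0.05 alone, 2 members (Neurod1 and Nkx6-1) were higher, against 3.78% of all genes, and 0 were lower, against 2.69%. No gene of the array reached an adjusted p under 0.05 by limma (0% of the genes tested), although 680 had an unadjusted p under 0.05. Tumors of the groups did not overlap for 4 members, 3 of them higher and 1 (Isl1) lower. Such separation was common on this array, with 18.5% of genes tested higher and 20.7% lower in both sEphB4-Alb tumors. The median log2 fold change of the 7 tested members was -0.04, against -0.02 over all genes tested. With 2 tumors per group, the smallest exact two-sided permutation p for a single gene is 0.33.

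**Figure D1:**
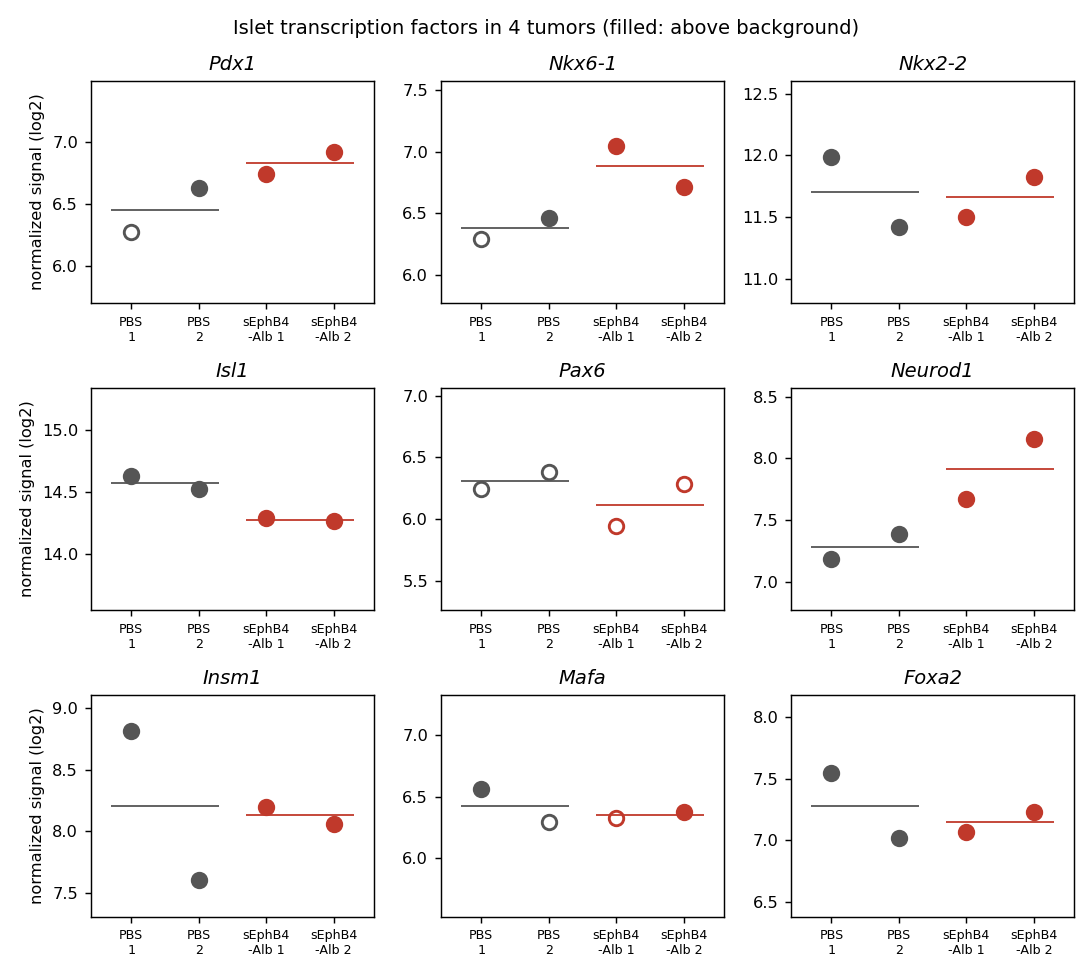
Normalized log2 signal (vertical axis) of the 9 islet transcription factors in each of 2 PBS and 2 sEphB4-Alb tumors, one panel per gene with its own range; points are tumors (filled where above background, open where not) and lines are group means. Neurod1, Nkx6-1 and Pdx1 are higher and Isl1 is lower in both sEphB4-Alb tumors, and PBS tumor 1 lies above the other tumors for Insm1.

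Neurod1, the basic helix-loop-helix factor that acts downstream of Neurog3 and binds E-boxes of the insulin genes, had the largest difference of the members. Its linear signal was 157.6 and 208 with PBS against 288.9 and 465.6 with sEphB4-Alb. After normalization the log2 values were 7.18 and 7.39 against 7.67 and 8.16. The groups did not overlap, and the gene was above background in all 4 tumors, at 1.17 and 1.58 times the threshold in PBS and 2.03 and 3.24 times in sEphB4-Alb tumors. The mean was 7.29 ± 0.14 (SD, n = 2) in PBS and 7.91 ± 0.35 in sEphB4-Alb tumors, a 1.55-fold difference (log2 fold change 0.63, SE 0.23, 95% interval 0.04 to 1.22, limma unadjusted p = 0.0411, adjusted p = 0.744). The 4 tumors had the same order in Neurod1 as in the median signal of their arrays, and the part of array brightness in the difference was not tested. The unadjusted p stayed under 0.05 only when sEphB4-Alb tumor 1 was the one left out (0.0326 by limma, with adjusted p near 1), and without sEphB4-Alb tumor 2 the log2 fold change was 0.36. In the linear model without moderation the unadjusted p was 0.142 and the adjusted p was 0.787.

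Insm1, a zinc-finger repressor needed for endocrine differentiation, is placed beside Neurod1 in the cascade but did not separate the groups. Its linear signals were 321.1 and 235.7 in PBS and 395.6 and 436.9 in sEphB4-Alb tumors, the sEphB4-Alb tumors being brighter before normalization. The normalized log2 values were 8.81 and 7.60 in PBS and 8.20 and 8.06 in sEphB4-Alb tumors. PBS tumor 1 was the highest and PBS tumor 2 the lowest of the 4, so the groups overlapped after normalization. The PBS SD of 0.85 was the widest of any member in either group, and the log2 fold change was -0.08 (SE 0.42, 95% interval -1.16 to 1.01, limma adjusted p = 0.973). Its sign depended on a single PBS tumor: leaving out PBS tumor 1 gave 0.55 and leaving out PBS tumor 2 gave -0.68. In each of these fits a lone PBS tumor stood for its group.

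Pdx1 and Nkx6-1 are homeodomain factors that hold beta cell identity, Pdx1 from the earliest pancreatic bud onward and Nkx6-1 by keeping alpha cell genes off. Pdx1 signal was 125.6 and 143.8 in PBS and 172.9 and 206.6 in sEphB4-Alb tumors. The normalized log2 values were 6.28 and 6.63 against 6.75 and 6.92, with no overlap between groups. Its log2 fold change was 0.38 (SE 0.20, 95% interval -0.13 to 0.89, limma unadjusted p = 0.114, adjusted p = 0.752). With PBS tumor 2 left out it was 0.57 (limma unadjusted p = 0.0302, adjusted p = 0.199), with the lone PBS tumor taken to vary like the other pair, and with each of the other tumors left out the unadjusted p by limma was 0.218 to 0.429. Pdx1, too, ordered the tumors as the median signal of their arrays did. Nkx6-1 signal was 126.3 and 134.5 in PBS and 205.6 and 181.9 in sEphB4-Alb tumors. Here the log2 values of 6.30 and 6.46 stood below 7.05 and 6.71, again without overlap. The log2 fold change was 0.50 (SE 0.19, 95% interval 0.0011 to 1.00, limma unadjusted p = 0.0497, adjusted p = 0.744). The limma unadjusted p was 0.0904 under median scaling, 0.0731 with no background correction and 0.0503 with another background threshold. By limma it was 0.0247 with an intensity trend and robust prior and 0.0327 with no filter on dim genes. With no normalization between arrays, where the median gene was 0.58 higher, it was 0.0307 by limma. The linear model without moderation gave an unadjusted p of 0.117. With any 1 tumor left out the unadjusted p of Nkx6-1 was 0.0523 to 0.327 by limma, and without sEphB4-Alb tumor 1 the log2 fold change was 0.32. Both genes were dim, at 0.935 to 1.44 times the background threshold of the array for Pdx1 and 0.940 to 1.44 times for Nkx6-1, and each exceeded it in 1 of 2 PBS tumors and 2 of 2 sEphB4-Alb tumors. Because they entered the test through the group in which they were higher, their direction is not independent of the filter.

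Nkx2-2, a homeodomain repressor that keeps beta cells from taking other islet fates, was bright in every tumor. Its linear signals were 2464 and 2714 in PBS and 3389 and 5592 in sEphB4-Alb tumors, 18.3 to 38.8 times the background threshold. After normalization the values of 11.99 and 11.42 in PBS overlapped 11.50 and 11.83 with sEphB4-Alb. The log2 fold change was -0.04 (SE 0.26, limma adjusted p = 0.978), with a 95% interval of -0.71 to 0.63.

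Isl1, a LIM-homeodomain factor required for islet cell differentiation and survival, was the only member lower in both sEphB4-Alb tumors after quantile normalization. Its linear signals, 146 to 188 times the background threshold, were 19630 and 21540 in PBS and 21290 and 27070 in sEphB4-Alb tumors and overlapped. On the normalized log2 scale the values were 14.63 and 14.52 in PBS and 14.29 and 14.26 in sEphB4-Alb tumors. The SDs of 0.07 and 0.02 were the smallest among the tested members, and the log2 fold change was -0.30 (SE 0.15, 95% interval -0.70 to 0.10, limma unadjusted p = 0.112, adjusted p = 0.750), which is 1.23-fold lower. Under median scaling the groups overlapped and the log2 fold change was -0.11. The direction flipped to 0.22 with no normalization between arrays, where the median gene was itself 0.58 higher in sEphB4-Alb tumors. Relative to the median gene, Isl1 was 0.36 lower there, as under median scaling, and 0.28 lower with quantile normalization.

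Pax6, a paired-box and homeodomain factor that activates glucagon and insulin genes, was not above background in any tumor. Its signals were 124.5 and 130.2 in PBS and 118.2 and 139.4 in sEphB4-Alb tumors, and no difference was measurable at this signal. Mafa, the basic leucine zipper factor of mature beta cells, exceeded background in 1 tumor of each group. Mafa signals were 134.5 and 126 in PBS and 139.4 and 146.9 in sEphB4-Alb tumors, 0.955 to 1.02 times the threshold. The normalized log2 values of 6.56 and 6.29 in PBS and 6.33 and 6.38 in sEphB4-Alb tumors overlapped. A signal at background gives no evidence on whether the transcript was present, since each gene was read through the probes of this array alone.

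Foxa2, a forkhead factor that opens chromatin for Pdx1 and other islet genes, was above background in all 4 tumors but close to it, at 1.31 to 1.76 times the threshold. Its signals were 179.8 and 172.8 in PBS and 207.2 and 253.2 in sEphB4-Alb tumors. The normalized log2 values were 7.54 and 7.02 in PBS and 7.07 and 7.23 in sEphB4-Alb tumors, with PBS tumor 1 the highest and PBS tumor 2 the lowest. The log2 fold change was -0.13 (SE 0.23, 95% interval -0.74 to 0.47, limma adjusted p = 0.901), and without PBS tumor 1 its sign was the opposite, at 0.15.

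**Figure D2:**
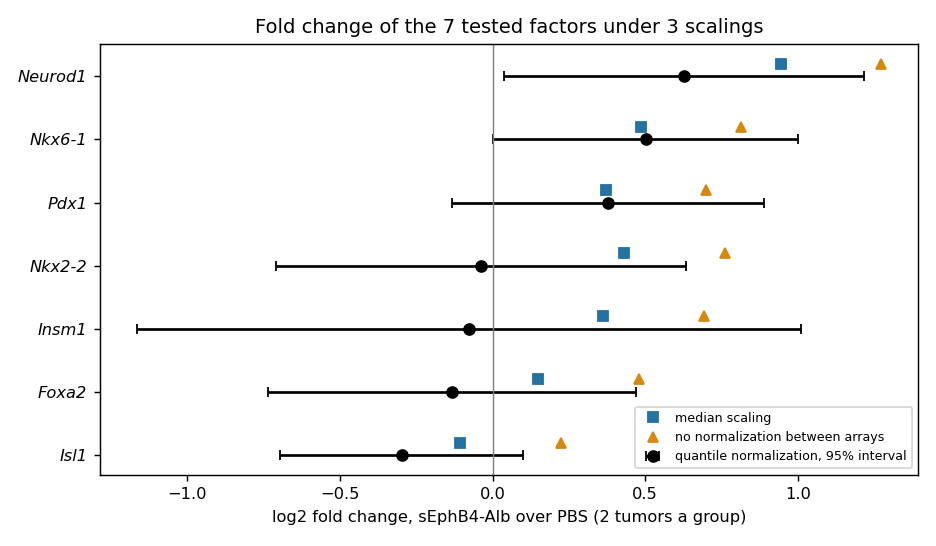
Log2 fold change of sEphB4-Alb over PBS (horizontal axis) for the 7 tested members; points are limma estimates and bars are 95% intervals. The intervals of Neurod1 and Nkx6-1 start just above 0, at 0.04 and 0.0011, and those of the other 5 members include 0.

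**Figure D3:**
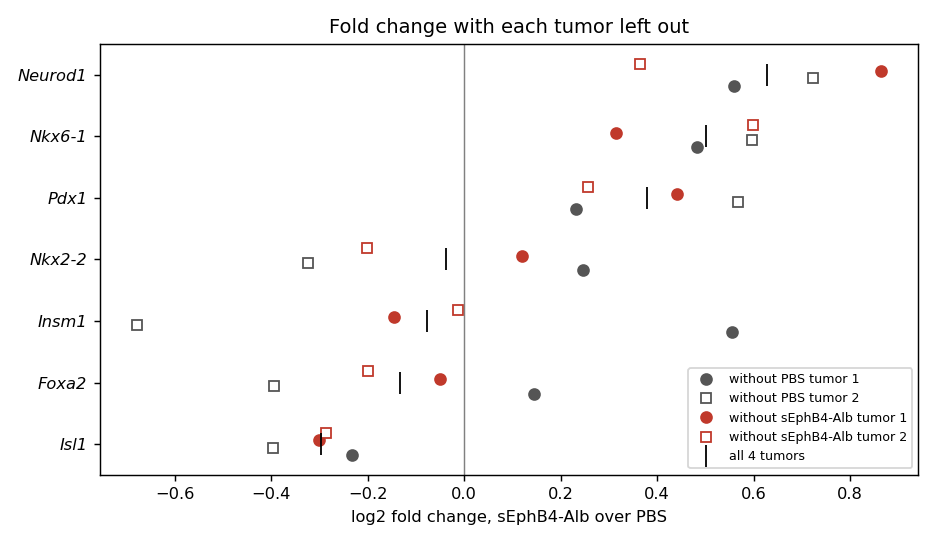
Log2 fold change (horizontal axis) of the 7 tested members with all 4 tumors and with each tumor left out in turn. Neurod1 stays between 0.36 and 0.86, Nkx6-1 between 0.32 and 0.60, Pdx1 between 0.23 and 0.57 and Isl1 between -0.40 and -0.23, whereas Nkx2-2, Insm1 and Foxa2 fall on both sides of 0.

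With each tumor left out in turn, Neurod1 was above 0 and Isl1 below 0 in every fit. As their groups did not overlap, leaving out a tumor could change the sign only through the renormalization. These signs are therefore no measure of stability. Neurod1 was also above 0 under each scaling of the arrays. Nkx6-1 and Pdx1 were above 0 in the same fits and did not overlap either. The filter that admitted them also favours that sign, so their sign is no measure of stability. Relative to the median gene, Neurod1 was 0.69 higher under median scaling and 0.64 higher with quantile normalization. The same relative values were 0.23 and 0.52 for Nkx6-1 and 0.12 and 0.39 for Pdx1, so the values of these dim genes moved more with the scaling.

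A wider list of islet transcription factors had 34 of 38 genes in the table, of which 25 were tested. The log2 fold change was above 0 for 16 and below 0 for 9, with a median of 0.11 over these 25, and under median scaling the list's median was 0.20 while the median of all genes was 0.25. At an unadjusted p under 0.05, 1 of the 25 was higher (Meis2) and 3 were lower (Irx2, Ldb1 and Mlxipl). Over all genes tested these shares were 3.78% and 2.69%. Tumors of the groups did not overlap for 7 of the 25 that were higher and 6 that were lower, against 18.5% and 20.7% of all genes. Among these genes only Mlxipl passed both thresholds.

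Mlxipl, the glucose-responsive factor also called ChREBP, had normalized log2 values of 10.91 and 9.92 in PBS and 8.85 and 9.48 in sEphB4-Alb tumors. Both treated tumors were lower, with a log2 fold change of -1.25 (SE 0.41, limma unadjusted p = 0.0290, adjusted p = 0.744) that was -0.75 without PBS tumor 1 and -0.93 without sEphB4-Alb tumor 1, both short of the fold threshold. Meis2, a homeodomain partner of Pbx and Pdx proteins, had the highest log2 fold change of the list at 0.57 (SE 0.18, limma unadjusted p = 0.0262, adjusted p = 0.744).

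Ldb1, the LIM-domain binding protein through which Isl1 acts in islet cells, was lower together with Isl1. Its normalized log2 values were 11.80 and 11.31 in PBS and 10.99 and 10.93 in sEphB4-Alb tumors, a log2 fold change of -0.60 (SE 0.22, limma unadjusted p = 0.0422, adjusted p = 0.744). Irx2, a homeodomain gene of alpha cells, had values of 11.89 and 11.79 in PBS and 11.38 and 11.15 in sEphB4-Alb tumors and a log2 fold change of -0.58 (SE 0.17, limma unadjusted p = 0.0198, adjusted p = 0.744). With no normalization between arrays both were above 0, at 0.20 for Ldb1 and 0.22 for Irx2, but relative to the median gene they were at -0.38 and -0.37. Ldb1, Irx2 and Meis2 were chosen here after their values had been seen.

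Several genes related to the members by known role were at background. Neurog3, which acts before Neurod1, Mnx1, a homeodomain factor of beta cells, and Foxa1, the close relative of Foxa2, were above background in no tumor, and Pax4, a paired-box factor of beta cell development, was above it in 1. By contrast Rfx6, a winged-helix factor of endocrine progenitors and beta cells, was bright, with log2 values of 12.51 and 11.50 in PBS and 11.78 and 12.33 in sEphB4-Alb tumors and a log2 fold change of 0.05 (SE 0.40). Hnf4a, a nuclear receptor of beta cells and liver, had a log2 fold change of 0.11 (SE 0.24).

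Genes that islet transcription factors are known to regulate in beta cells were compared next. Of 26 listed, 25 were in the table and 19 were tested, with log2 fold changes above 0 for 10 and below 0 for 9 and a median of 0.03. Only Cox6a2, which encodes the muscle form of a cytochrome c oxidase subunit and is also made in beta cells, passed both thresholds, and it was higher. At an unadjusted p under 0.05, 3 genes were higher (Ins1, Ins2 and Cox6a2) and 0 were lower, and the groups did not overlap for 4 of the 19 that were higher and 3 that were lower, against the same shares over all genes (3.78% and 2.69% at that p, 18.5% and 20.7% without overlap).

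Ins2, the conserved insulin gene, had normalized log2 values of 13.20 and 12.81 in PBS and 13.74 and 13.66 in sEphB4-Alb tumors (log2 fold change 0.69, SE 0.20, limma unadjusted p = 0.0178, adjusted p = 0.744). Ins1, the second rodent insulin gene, had values of 10.99 and 10.58 against 11.75 and 11.45 (log2 fold change 0.82, SE 0.22, limma unadjusted p = 0.0151, adjusted p = 0.744). The study lists Ins1 among its genes more than 2-fold higher. It does not state the measure, but its value for Ins1 matches the ratio of mean linear signals as deposited. Both insulin genes were higher in both sEphB4-Alb tumors, and as they share sequence a probe may read both. Cox6a2 had values of 6.28 and 6.81 in PBS and 7.89 and 7.36 in sEphB4-Alb tumors and was above background in 1 PBS tumor and in both of the treated ones. As Cox6a2 entered the test through the group in which it was higher, its direction is not independent of the filter. The log2 fold change of Cox6a2 was 1.08 (SE 0.29, limma unadjusted p = 0.0138, adjusted p = 0.744), and it was 0.78 without sEphB4-Alb tumor 1 and 0.89 without PBS tumor 1.

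The remaining targets differed among themselves. Slc2a2, the glucose transporter of beta cells that Pdx1 is known to activate, and Pcsk1, a proinsulin-cleaving protease, were above background in no tumor. Iapp, which encodes amylin, had log2 values of 6.99 and 6.91 in PBS and 7.42 and 7.09 with sEphB4-Alb, without overlap, and a log2 fold change of 0.30 (SE 0.19). Slc30a8, the zinc transporter of insulin granules, differed by -0.03 (SE 0.32) and G6pc2, an islet glucose-6-phosphatase, by 0.17 (SE 0.18). Ucn3, a marker of mature beta cells, differed by -0.17 (SE 0.17), and Glp1r, the incretin receptor, was above background in 1 tumor of each group and was not tested. Abcc8, the sulfonylurea receptor subunit of the potassium channel, had the lowest value of the list at -0.37 (SE 0.18, limma unadjusted p = 0.0974, adjusted p = 0.746), and with median scaling it was 0.09, or -0.16 relative to the median gene.

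**Figure D4:**
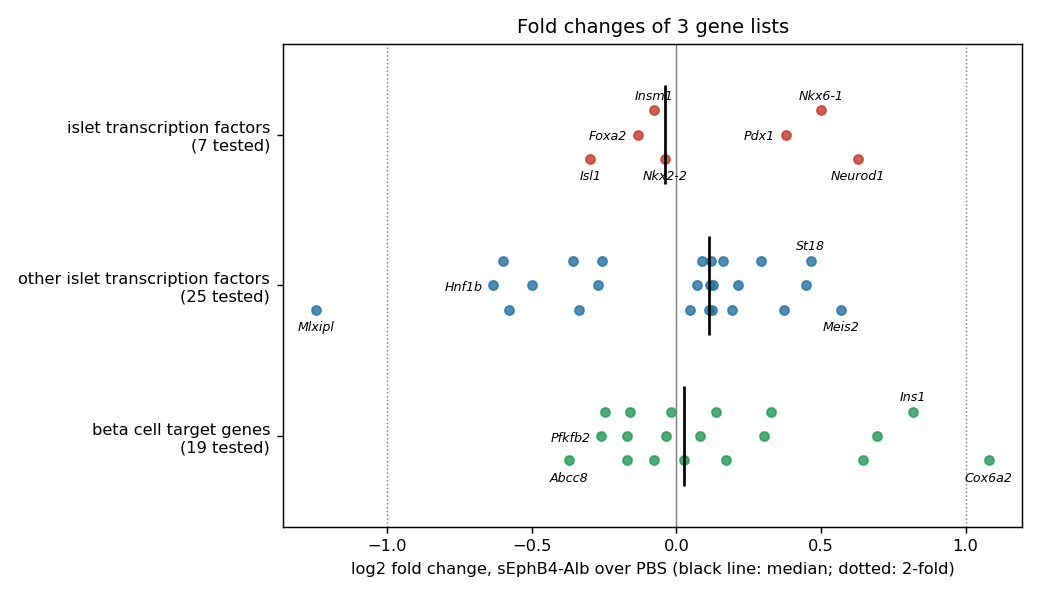
Log2 fold change of sEphB4-Alb over PBS (horizontal axis) for the tested genes of 3 lists; each point is a gene, black lines are list medians, dotted lines mark a 2-fold change, and points are spread vertically for display. List medians are -0.04, 0.11 and 0.03, and only Mlxipl and Cox6a2 lie beyond 2-fold.

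Markers of the tissue were measured beside these genes. Summed normalized signal of 6 beta cell markers was 11960 and 9137 in PBS and 17660 and 16170 in sEphB4-Alb tumors, with Slc2a2 at background. Ins2 was the brightest of these 6 in every tumor (log2 12.81 to 13.74) and Ins1 the next. The sum thus mostly repeats the insulin genes and says little about the others. Of 5 tested, 4 were above 0 in log2 fold change and 1 (Slc30a8, -0.03) below. The summed signal of 8 markers of the other islet endocrine cells was 26490 and 16460 against 19670 and 21060. Gcg was the brightest of these 8 in every tumor (log2 13.54 to 14.43), so the sum says little about the others. Of 6 tested, 4 were above 0 in log2 fold change and 2 below. Sst (3.59) and Pyy (1.83) passed both thresholds as higher, against 0.971% of all genes. Pyy was above background in 1 PBS tumor and entered the test through the sEphB4-Alb group. The sums of exocrine markers varied more between tumors than those of either islet list. The summed signal of 15 acinar markers was 8306 and 31910 in PBS and 23640 and 123700 in sEphB4-Alb tumors, with all 14 tested acinar markers above 0 in log2 fold change. Duct markers (9 genes) summed to 1241 and 2254 in PBS and 3106 and 3415 in sEphB4-Alb tumors, and macrophage markers (9 genes) to 3678 and 3821 against 6330 and 5308, without overlap in either list. Red cell markers (6 genes) were highest in PBS tumor 1, at 19800 against 2802 to 5146 in the other tumors. Sums of 8 endothelial markers (3139 to 4022) and 6 fibroblast markers (1223 to 2204) overlapped between the groups. The sum of 6 proliferation markers was 18820 and 12980 in PBS and 10940 and 12690 with sEphB4-Alb, so the second tumors of the groups were close. In log2 fold change 5 of the 6 were below 0 and 1 (Pcna, 0.76) was above 0. Under median scaling 4 of them were above 0, with a median of 0.27 against 0.25 over all genes. Whether these cell types or a share of non-tumor RNA had a part in the values of the transcription factors was not tested, and in RNA of whole tumors fewer cells of a type and less RNA per cell cannot be told apart.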

How the data were processed

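RNA of 4 RT2 tumors (2 PBS, 2 sEphB4-Alb), 1 Illumina MouseRef-8 v2.0 array each, was analysed by the groups in the sample labels. For 18091 gene symbols the authors deposited a single signal intensity on a linear scale, read from biotinylated cRNA. The sources used here give neither the software nor how probes of a gene were combined. The array medians differ, so the intensity values were treated as not scaled. Another 8 columns were left out because no single sample matches their names.

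Signals were corrected by normexp (offset 50) and quantile normalized, and log2 values of the groups were compared by limma 3.58.1 (lmFit, eBayes; R 4.3.3) at 2 residual degrees of freedom. The Benjamini-Hochberg method adjusted p-values over 10509 genes. Background was the mode of the signals under 2 times the median of an array plus 1.645 times the spread below the mode. The 2-fold and unadjusted p of 0.05 thresholds are those of the study, applied here to normalized values. Steps were tested on simulated data. Genes to be named were the 9 members and, of the 2 wider lists, those past both thresholds, the extremes and those paired by role. A few of the listed genes are not reported here. Members and lists were chosen with earlier results of these data known. Summed signals are sums of normalized linear values. Alternatives covered background correction, scaling, filter, test, replicate number as a block, thresholds, linear means and each array left out. The number of arrays limits the precision.

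Promoters came from RefSeq (GRCm38.p6). Figures were drawn with matplotlib 3.10.9.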

Additional observations from a re-analysis of the deposited data

How the results depend on the processing

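The count of 0 members past both thresholds was 1 (Neurod1) at a fold threshold of 1.5 (3.72% of all genes) and with no normalization between arrays (10.5%), and 2 at the unadjusted p alone (6.47%), a rule chosen after seeing the data. It was 0 under the other 13 alternatives, among them an adjusted p under 0.05. The count of 4 members without overlap (39.2% of all genes) was 2 when signal above background on all 4 arrays was required (38.2%), since Pdx1 and Nkx6-1 were then not tested, and 4 to 7 with each array left out (59.6% to 82.6%), where 1 tumor stands for its group. It was 4, all higher, under median scaling (43.5%) and 6, all higher, with no normalization (74.1%). The members' median was 0.37 under median scaling and 0.70 with no normalization between arrays, settings that moved the median of all genes to 0.25 and 0.58, and -0.32 to 0.25 with each array left out.

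Under median scaling, no normalization and linear means, respectively, signs were reversed for Nkx2-2 (0.43, 0.76 and 0.79), Insm1 (0.36, 0.69 and 0.58) and Foxa2 (0.15, 0.48 and 0.39), and for Isl1 under the last 2 (0.22 and 0.23). Signs were also reversed without PBS tumor 1 for Nkx2-2 (0.25), Insm1 (0.55) and Foxa2 (0.15), and for Nkx2-2 without sEphB4-Alb tumor 1 (0.12). Without PBS tumor 2, Insm1 was -0.68 and Foxa2 -0.40. The first 3 settings raised the median gene, to 0.48 for linear means. Relative to it, Foxa2 was at -0.11, -0.11 and -0.09 and Isl1 at -0.36 and -0.25 under the last 2, whereas Nkx2-2 (0.18, 0.18 and 0.32) and Insm1 (0.11, 0.11 and 0.10) were above it. For Nkx2-2, Insm1 and Foxa2, PBS tumor 1 had the highest and PBS tumor 2 the lowest normalized value. The sign without either PBS tumor therefore followed from the tumor that remained. For Nkx2-2, sEphB4-Alb tumor 1 was the lower of the treated tumors. Why the PBS tumors differed was not tested. The other 88 values of single members kept their direction, and the 78 of them with an adjusted p were not under 0.05.

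Over all genes, the calls past both thresholds, 102 higher and 17 lower, were 297 and 7 under median scaling, 1101 and 3 with no normalization, 67 and 7 with no background correction, 66 and 15 above background on all 4 arrays, 32 and 8 without moderation (the setting with 1 gene at an adjusted p under 0.05), and 96 to 300 higher and 29 to 167 lower with each array left out, the most without PBS tumor 2. With the replicate number as a block the calls were 156 and 22 and the count of members was 0. The numbers did not pair the tumors (correlation of same-numbered deviations 0.04 over 10509 genes), and the block changed no member's call at the adjusted p. The unadjusted p of Nkx6-1 was 0.0826 with the block by limma. The other deposited table was not run, since its columns match no single sample. Signal close to background limits Pdx1, Nkx6-1, Mafa, Pax6, Foxa2 and, in the PBS tumors, Neurod1.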
